A study of Mus musculus with 7 samples.

Results

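The small heat shock genes of skeletal muscle were examined in TA (tibialis anterior), which lies along the shin and consists mainly of fast fibres. The 7 genes *Cryab*, *Hspb1*, *Hspb2*, *Hspb3*, *Hspb6*, *Hspb7* and *Hspb8* were taken by symbol, and all 7 were present among the 12239 genes analysed. RNA was taken from male FVBN mice aged 5 to 6 months that were either wild type (WT, n = 4) or lacked *Mybpc2* (C2-/-, n = 3), the gene of fast myosin binding protein-C (fMyBP-C). In the knockout allele, a run of *Mybpc2* exons is replaced by a Neo cassette between LoxP sites. No Cre or tissue-specific driver and no other allele or treatment is given for either group, so the loss is not limited to muscle fibres. The question was whether this chaperone family changed in muscle without fMyBP-C, and whether WT replicate 4, a library that stood apart from the other WT libraries, lay with C2-/-.

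Small heat shock proteins are chaperones that need no ATP. They share an alpha-crystallin domain, assemble into oligomers, and hold unfolding proteins until they are refolded by other chaperones or degraded. Striated muscle contains more of them than most tissues. There, CRYAB and HSPB1 bind desmin, titin and actin under mechanical or heat stress, HSPB2 and HSPB3 form a complex with each other, HSPB6 is a substrate of cyclic nucleotide-dependent kinases, HSPB7 associates with filamin C, and HSPB8 works with BAG3 in the autophagic removal of damaged Z-disc proteins.

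The heat shock factors that induce many chaperone genes bind inverted repeats of GAA, and such repeats lie at the start of several members. RefSeq windows (GRCm38.p6) from 250 bases before to 50 bases after an annotated start matched 5 of the 7 genes by symbol (*Hspb1*, *Hspb3*, *Hspb6*, *Hspb7* and *Hspb8*), with 2 windows for *Hspb6*. Stretches of 3 of them are shown, because the same 8 letters occurred at *Hspb6*, which rose, and at *Hspb8*, which fell. Capitals mark GAANNTTC, positions are counted from the annotated start (position 0), and each is written 5′ to 3′ on the strand of the gene.
*Hspb1*, plus strand, chr5:135887669-135887918: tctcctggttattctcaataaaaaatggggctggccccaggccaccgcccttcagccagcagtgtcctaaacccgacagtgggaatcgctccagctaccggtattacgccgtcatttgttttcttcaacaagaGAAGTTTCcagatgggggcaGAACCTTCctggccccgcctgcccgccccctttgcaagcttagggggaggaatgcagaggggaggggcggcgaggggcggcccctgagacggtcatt
*Hspb6*, plus strand, chr7:30553063-30553267: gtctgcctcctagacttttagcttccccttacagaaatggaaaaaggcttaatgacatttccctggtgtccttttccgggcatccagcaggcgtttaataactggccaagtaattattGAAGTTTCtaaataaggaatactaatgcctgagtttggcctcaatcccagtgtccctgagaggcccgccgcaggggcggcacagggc
*Hspb8*, minus strand, chr5:116422845-116422874: cagaagccaggaGAAGTTTCtaggctcgcg
GAAGTTTC stood at -117 in *Hspb1*, at -120 in *Hspb6* and at 2 in *Hspb8*, and *Hspb1* held a second match, GAACCTTC, at -97. In *Hspb3*, GAATTTTC stood at -224. The *Hspb7* window had no match, nor had the other *Hspb6* window (chr7:30552290-30552589), which lies upstream of the one shown. The *Hspb6* stretch shown thus belongs to a downstream start within the annotated gene. On either strand, GAANNTTC was found in 7.86% of 32851 mouse windows of the same length. Its reverse arrangement, TTCNNGAA, was in 8.52% of the windows and in none of the members' windows. The box TATAAA (13.6% of windows) was found at -29 in *Hspb6* and at -11 in *Hspb3*, and CTAAAAATA, a form of the MEF2 site (0.517% of windows), at 30 in *Hspb1*. These are matches of letters only. *Cryab* and *Hspb2* are named without a sequence.

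The libraries differed in depth. WT replicates 1 to 3 held 14929214 to 15464499 reads, WT replicate 4 held 4683853, and the C2-/- libraries held 2613277 to 4917936. Depth therefore went with genotype except in WT replicate 4, the only WT library within the C2-/- range of depth. The part of depth, or of whatever made the libraries differ in it, in the changes below was not tested. *Mybpc2* fitted every genotype label, with log2 values of 12.41 to 12.85 in WT and of -0.47 to 1.67 in C2-/-, the latter from 3 to 8 reads. WT replicate 4, at 12.51, had the *Mybpc2* level of a WT muscle. Values below are log2 CPM (CPM, reads of a gene scaled to a common library size by TMM factors), and log2 changes are C2-/- minus WT from limma, with the SE and the p adjusted over all genes by Benjamini-Hochberg. A gene was called when that p was under 0.05 and the fold change above 1.5 (0.585 on the log2 scale).

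The 7 genes did not move together. *Cryab* and *Hspb6* rose 2.46-fold and 3.04-fold in C2-/-, *Hspb2* and *Hspb8* fell 3.95-fold and 2.56-fold, and *Hspb1*, *Hspb3* and *Hspb7* did not pass the test. Thus 4 of 7 were called, 2 higher and 2 lower, where 45.2% of all genes were called, 20.2% as higher and 25.0% as lower. The members' median log2 change was -0.45, against -0.14 over all genes, and their median absolute change was 1.30, against 0.91. In whole muscle, fewer cells of a type and less RNA per cell cannot be told apart. The split also moved with a correction for base composition. The log2 change of all genes ran against the GC content of their transcripts (Spearman's rho -0.68 across 12170 genes, which are not independent replicates), and the members' transcripts had 51.5% to 61.7% GC, above the median gene at 50.2%. After removal of a GC trend from each library, 6 of 7 members were called, 5 higher and 1 lower, where 20.6% of all genes were called, 12.3% higher and 8.32% lower. Quantile normalisation gave 2 higher and 4 lower, where 46.1% of all genes were called, 23.6% higher and 22.6% lower. Centring each library on its median gave 3 higher and 2 lower, where 46.0% of all genes were called, 24.8% higher and 21.2% lower. Under both, more genes of the whole table were called higher than lower, the opposite of the balance without them.

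**Figure D1:**
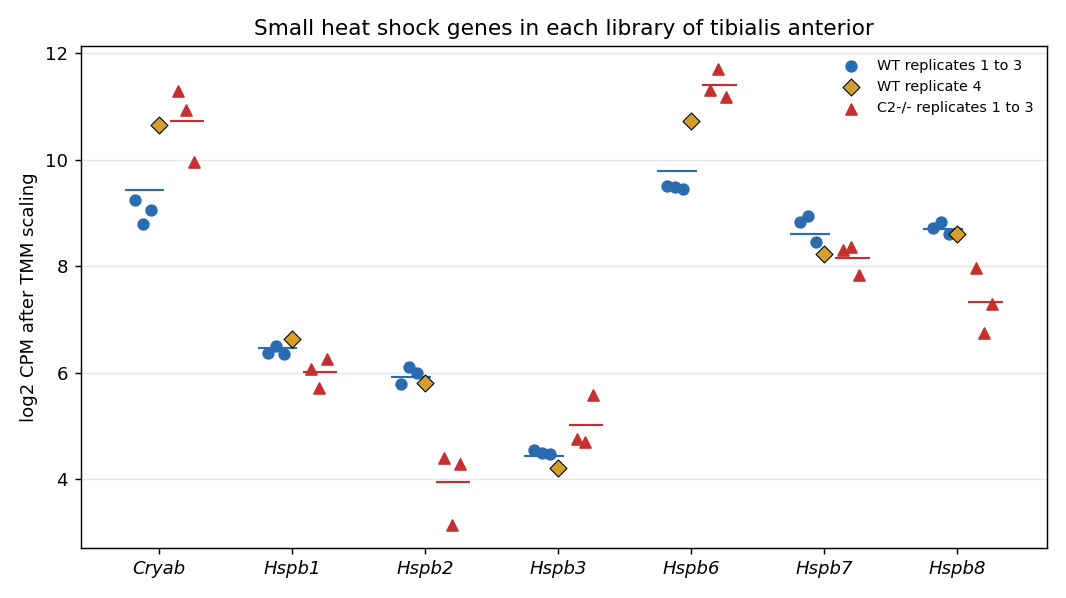
Log2 CPM after TMM scaling (y axis) of each small heat shock gene (x axis) in every library. Circles are WT replicates 1 to 3, diamonds WT replicate 4 and triangles C2-/- replicates, with bars at the WT (n = 4) and C2-/- (n = 3) means; WT replicate 4 is with the C2-/- triangles for *Cryab* and *Hspb7*, between the groups for *Hspb6*, and at the WT level for *Hspb2* and *Hspb8*.

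*Cryab* encodes alphaB-crystallin, the chaperone of desmin and titin, and lies on chromosome 9 (GRCm38, plus strand, 50751325 to 50756636). Its log2 values were 9.24, 8.80, 9.06 and 10.65 in WT replicates 1 to 4 (9.44 ± 0.83, SD, n = 4). They were 11.30, 10.94 and 9.96 in C2-/- replicates 1 to 3 (10.73 ± 0.69, SD, n = 3). All 3 C2-/- values exceeded WT replicates 1 to 3, and the groups overlapped through WT replicate 4 alone, which was above C2-/- replicate 3. This was a log2 change of 1.30 with an SE of 0.44 (limma adjusted p = 0.0338). Without WT replicate 4 it was 1.70 (SE 0.31, limma adjusted p = 0.00256). With WT replicate 4 kept, the call was lost when WT replicate 1, 2 or 3, or C2-/- replicate 1 or 2, was left out (limma adjusted p = 0.0691, 0.0843, 0.0761, 0.132 and 0.103, in that order). With all libraries kept, it was also lost when limma was run without the mean-variance trend (limma adjusted p = 0.0786).

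*Hspb6* encodes the small heat shock protein that protein kinases A and G phosphorylate in muscle (chromosome 7, plus strand, 30552178 to 30555443). Its values in WT replicates 1 to 3 were nearly equal, at 9.50, 9.49 and 9.46. WT replicate 4 stood at 10.74, and the C2-/- replicates were at 11.30, 11.71 and 11.18. The groups did not overlap (WT 9.80 ± 0.63, SD, n = 4, and C2-/- 11.40 ± 0.28, SD, n = 3). The log2 change of 1.60 (SE 0.31, limma adjusted p = 0.00297) was 1.92 without WT replicate 4 and 2.69 after the GC correction. *Hspb6* stayed called, as higher, in every alternative and with any single library left out.

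*Hspb2* encodes a small heat shock protein that binds the myotonic dystrophy protein kinase (chromosome 9, minus strand, 50751078 to 50752354). It had values of 5.78, 6.11, 6.00 and 5.81 in WT (5.93 ± 0.16, SD, n = 4). C2-/- muscle had 4.40, 3.14 and 4.29 (3.94 ± 0.70, SD, n = 3), all below WT. These came from 246 to 1035 reads in WT and 61, 23 and 94 reads in C2-/-. The exact 95% Poisson interval of the 23 reads in C2-/- replicate 2 is 14.6 to 34.5 reads, which covers counting error only. The change was -1.98 on the log2 scale (SE 0.30; limma adjusted p = 0.00102) and passed with any single library left out. After the GC correction it was -0.34 (SE 0.23, limma adjusted p = 0.321), and its transcript had 59.6% GC.

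*Hspb8*, whose protein pairs with BAG3 (chromosome 5, minus strand, 116408491 to 116422864), had the least spread in WT, at 8.71, 8.83, 8.61 and 8.61 (8.69 ± 0.10, SD, n = 4). The C2-/- values were 7.97, 6.75 and 7.28 (7.33 ± 0.61, SD, n = 3), each below every WT value. WT replicate 4 had the same *Hspb8* level as WT replicate 3. *Hspb8* was thus lower by a log2 change of -1.36, with an SE of 0.25 (limma adjusted p = 0.00222). It was -0.68 (SE 0.20, limma adjusted p = 0.0358) after the GC correction, and *Hspb8* was called lower in each alternative.

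The other 3 genes missed the threshold. *Hspb1*, the stress-phosphorylated regulator of actin filaments (chromosome 5, plus strand, 135887919 to 135889563), had values of 6.36, 6.50, 6.35 and 6.62 in WT. In C2-/- it had 6.06, 5.72 and 6.25, below all WT values. Its log2 change was -0.45 (SE 0.18, 95% interval -0.85 to -0.05, limma adjusted p = 0.0639). With quantile normalisation it passed as lower, at -0.59 (limma adjusted p = 0.0171). *Hspb1* had the most GC-rich transcript of the 7, at 61.7%, and after the GC correction its change was 1.40 in the other direction (SE 0.25, limma adjusted p = 0.00515).

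*Hspb3*, the partner of *Hspb2* in its protein complex (chromosome 13, minus strand, 113662896 to 113663676), had values of 4.54, 4.49, 4.47 and 4.21 in WT. Those in C2-/- were 4.76, 4.70 and 5.58, above all WT values, with C2-/- replicate 3 set off from the other two. The estimated change was 0.58 on the log2 scale (SE 0.26, 95% interval 0.0044 to 1.16, limma adjusted p = 0.0888). Without C2-/- replicate 3 it was 0.30 (limma adjusted p = 0.285). With all libraries it was 0.74 (limma adjusted p = 0.0416) with median centring and 1.01 (limma adjusted p = 0.0224) after the GC correction, past the threshold in both.

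*Hspb7*, the filamin C-associated member (chromosome 4, plus strand, 141420779 to 141425311), had values of 8.84, 8.94, 8.45 and 8.22 in WT. The C2-/- values were 8.30, 8.36 and 7.83, so that WT replicate 4 was below 2 of the 3 C2-/- libraries. The estimate was -0.45 (SE 0.21, 95% interval -0.92 to 0.03, limma adjusted p = 0.107), and -0.28 (limma adjusted p = 0.323) without C2-/- replicate 3. Quantile normalisation gave -0.71 (limma adjusted p = 0.031), past the threshold, and the GC correction turned the value to 0.94 (limma adjusted p = 0.0179).

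**Figure D2:**
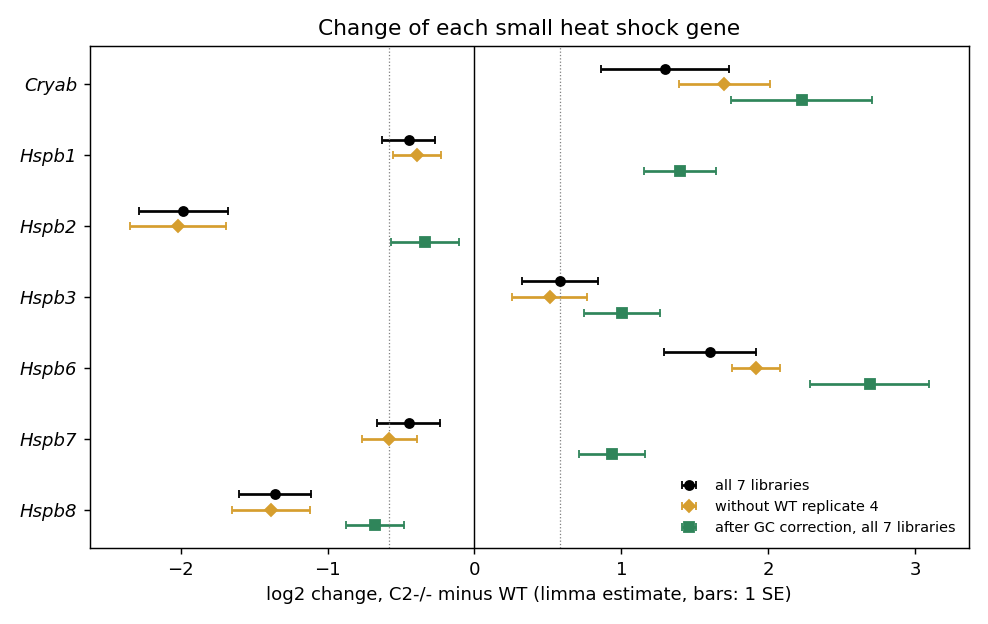
Log2 change (C2-/- minus WT, x axis; bars are 1 SE of limma's estimate) of each gene (y axis) with all 7 libraries (circles), without WT replicate 4 (diamonds) and after the GC correction (squares); dotted lines mark the 1.5-fold limits. Leaving out WT replicate 4 moved *Cryab* from 1.30 to 1.70, and the GC correction moved all 7 estimates upward, with *Hspb1* and *Hspb7* crossing 0.

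Over the 7 genes, C2-/- and WT values did not overlap in 5 (3 lower and 2 higher), where 49.3% of all genes did not overlap, 26.7% lower and 22.6% higher. Against WT replicates 1 to 3 alone, the C2-/- values lay outside the WT range in 7 of 7 members, where 65.8% of all genes did so. *Cryab* and *Hspb7* were the members that overlapped once WT replicate 4 was counted.

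*Hspb2* and *Cryab* lie head to head on opposite strands of chromosome 9, a pair known for sharing regulatory sequence while being expressed differently. In GENCODE M21 their exons share 252 bases, 30.2% of the exonic bases of *Hspb2* and a smaller share of those of *Cryab*. In RefSeq, *Cryab* runs from 50745951 to 50756636 and spans all of *Hspb2* (50751072 to 50752354). Neither the annotation nor the use of strand in the counting is stated, so reads from shared bases cannot be told apart. How far the values of either gene depend on this was not tested. The log2 ratio of *Cryab* to *Hspb2*, which does not depend on library scaling, was 3.45, 2.69, 3.06 and 4.84 in WT replicates 1 to 4. It was 6.90, 7.80 and 5.67 in C2-/- replicates 1 to 3, each above every WT value. The difference of 3.28 (9.71-fold) had p = 0.02857 in a two-sided exact permutation test, the smallest p that the 35 splits of these libraries allow. Corrected for GC, the difference was 2.57 (exact permutation p = 0.0571). *Cryab* and *Hspb2* had already been called in opposite directions, so the ratio restates those calls and is not separate support.

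The analysed gene next to *Cryab* on its other side was *1110032A03Rik* (minus strand, 50762828 to 50775520), 6.19 kb away. It also rose, from 3.56, 4.05, 3.68 and 5.64 in WT to 6.91, 6.16 and 6.98 in C2-/-, a log2 change of 2.45 with an SE of 0.46 (limma adjusted p = 0.00249). Its change was 2.36 (limma adjusted p = 0.0071) after the GC correction. WT replicate 4 again had the highest WT value. The gene on the far side of *Hspb2*, *2310030G06Rik*, 4.54 kb away, stood at 0.68 for the change, with an SE of 0.48 (limma adjusted p = 0.262). Of the 12 analysed genes nearest to the members, 1 rose and 4 fell (*Tmem233*, *Ywhag*, *Epha2* and *Zbtb17*), where 45.2% of all genes were called. *Epha2* had 8 to 88 reads in WT and 0 to 1 in C2-/-. After the GC correction 3 of the 12 were called higher, with *Snx18* (1.16) and *Mdh2* (1.14) added, and 2 lower, with *Ywhag* (-0.29) and *Zbtb17* (0.21) lost, where 12.3% of all genes were called higher and 8.32% lower. The call of *Zbtb17* was lost without WT replicate 1, 2 or 3 or without C2-/- replicate 2 (limma adjusted p = 0.0527, 0.0591, 0.0588 and 0.0658, in that order). *Proser3* and *Lin37*, which overlap *Hspb6* on the opposite strand by 122 and 3 bases, did not pass, with at most 71 and 99 reads in any library against at least 7346 for *Hspb6*.

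**Figure D3:**
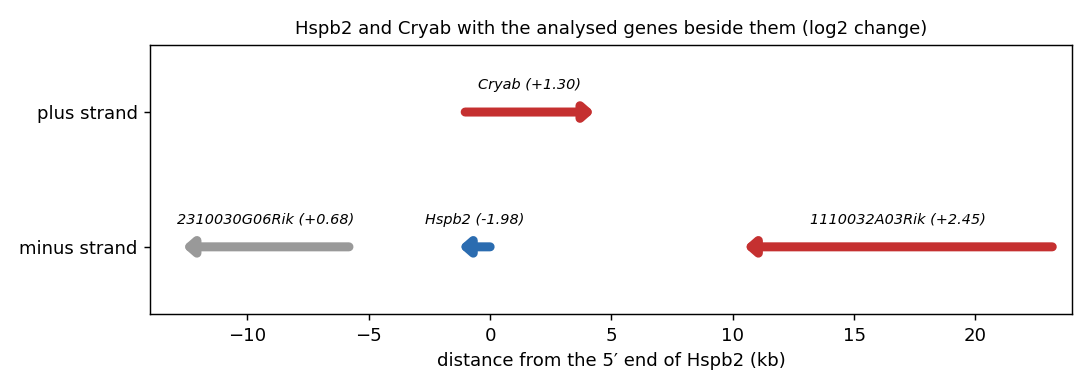
Positions of *Hspb2*, *Cryab* and the nearest analysed gene on either side along the plus and minus strands (x axis, distance from the 5′ end of *Hspb2* in kb), with the log2 change (C2-/- minus WT) in brackets. Arrows point in the direction of transcription, red genes rose, blue genes fell and grey genes did not pass the test; *Cryab* (1.30) and *1110032A03Rik* (2.45) lie on one side of *Hspb2* (-1.98), and *2310030G06Rik* (0.68) on the other.

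WT replicate 4 was then placed gene by gene between the mean of WT replicates 1 to 3 and the C2-/- mean. It had gone 94.9% of that distance for *Cryab*, 89.8% for *Hspb7* and 65.5% for *Hspb6*. For *Hspb2* and *Hspb8* it had gone 7.65% and 7.75%. For *Hspb1* and *Hspb3* it lay on the far side of WT, by 0.22 and -0.29 on the log2 scale. WT replicate 4 was thus nearer to C2-/- in 3 of 7 members, where 38.1% of all genes were. Among called genes it was nearer to C2-/- in 2 of the 4 members, where 22.4% of all called genes were. It was within the C2-/- range in 2 of 7, where 32.8% were. It was within the range of WT replicates 1 to 3 for *Hspb2* alone, where 14.5% of all genes were. Its mean absolute distance over the 7 genes was 0.59 to WT replicates 1 to 3 and 0.77 to C2-/- on the log2 scale. By these values it lay with C2-/- for *Cryab* and *Hspb7*, part of the way for *Hspb6*, and with WT for the remaining members. For *Hspb7* the groups were not told apart by the test, and WT replicates 1 to 3 themselves ran from 8.45 to 8.94, against 8.22 in WT replicate 4. The counts of 3 and 2 of 7 were close to the shares of all genes, so the position of WT replicate 4 was not particular to the members. These are counts from a single library, without a test.

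**Figure D4:**
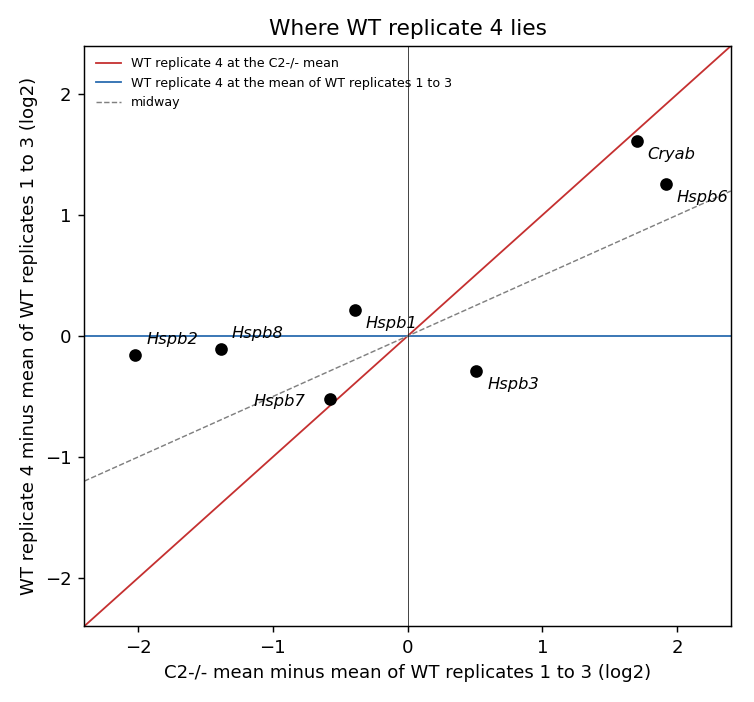
Log2 distance of WT replicate 4 (y axis) and of the C2-/- mean (x axis) from the mean of WT replicates 1 to 3, with 1 point per gene. The red line is where WT replicate 4 equals the C2-/- mean and the blue line where it equals the other WT libraries; *Cryab* and *Hspb7* are by the red line, *Hspb2* and *Hspb8* by the blue line.

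The summed level of the 7 genes was 2146 to 2365 CPM for WT replicates 1 to 3, but 4174 CPM for WT replicate 4. The C2-/- libraries summed to 3850 to 5840 CPM. *Cryab* and *Hspb6* together made up 50.8% to 57.7% of it among WT replicates 1 to 3 and 86.3% to 91.1% among C2-/-, with WT replicate 4 at 79.3%. The share of *Hspb8* was 17.8% to 19.9% for WT replicates 1 to 3 and 1.84% to 4.37% for C2-/-, with 9.37% for WT replicate 4. That of *Hspb7* was 16.3% to 21.4%, 5.49% to 5.92% and 7.15% in the same order. In each of these shares WT replicate 4 lay between the other WT libraries and C2-/-. Such shares are tied to each other, since a rise of *Cryab* and *Hspb6* lowers the rest.

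**Figure D5:**
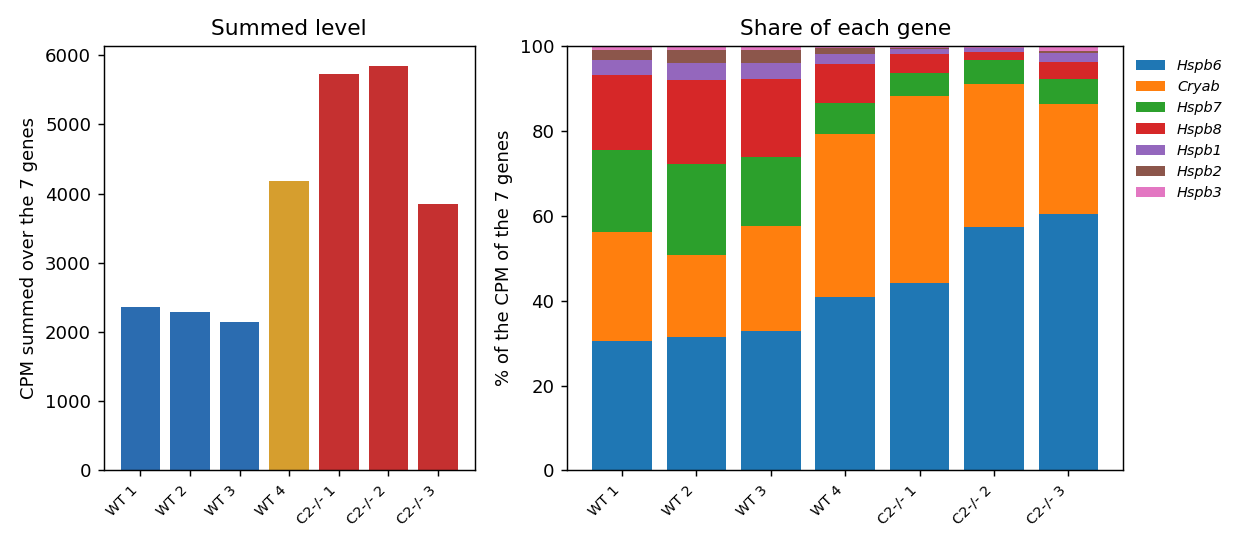
CPM summed over the 7 small heat shock genes (left, y axis) and the percent of that sum taken by each gene (right, y axis) in every library (x axis). *Hspb6* and *Cryab*, the 2 lowest blocks of each bar on the right, rise from 50.8% to 57.7% of the bar for WT replicates 1 to 3 to 86.3% to 91.1% for C2-/-, and WT replicate 4 has 79.3%.

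Per kb of transcript, *Cryab* and *Hspb6* were the most abundant members in all 7 libraries. In WT their levels were 713 ± 485 and 707 ± 364 CPM per kb (SD, n = 4), which did not differ beyond their spread. *Hspb8* (228 ± 16.7) and *Hspb7* (144 ± 32.6) followed, then *Hspb1* (94.9 ± 8.64), *Hspb2* (78.9 ± 8.70) and *Hspb3* (27.6 ± 2.73, each SD, n = 4). In C2-/- the order was *Hspb6* (2008 ± 400), *Cryab* (1636 ± 691), *Hspb7* (105 ± 19.7), *Hspb8* (94.2 ± 40.0), *Hspb1* (70.0 ± 12.9), *Hspb3* (42.8 ± 15.7) and *Hspb2* (21.2 ± 8.73, each SD, n = 3). Neighbours in this order overlapped between libraries for *Cryab* with *Hspb6* and *Hspb1* with *Hspb2* in WT, and for *Hspb6* with *Cryab*, *Hspb7* with *Hspb8*, *Hspb8* with *Hspb1* and *Hspb1* with *Hspb3* in C2-/-. *Hspb3* was the lowest member in every WT library, and *Hspb2* in every C2-/- library.

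Among the members, the profiles over the 7 libraries fell closest together for *Hspb2* with *Hspb8*, with a mean absolute difference of 0.32 on the gene-centred log2 scale. *Hspb1* with *Hspb7* (0.34) and *Cryab* with *Hspb6* (0.35) came next of 21 pairs, and *Hspb2* with *Hspb6* (1.76) were farthest apart. Among 3790 other genes whose log2 values averaged 5 or more, the profile most like *Hspb6* was *Abcc9* (0.054), followed by *Rab10os* (0.067) and *Trappc6b* (0.079). For *Cryab* the nearest were *Prpf38b* (0.16), *Srek1ip1* (0.17) and *Pitrm1* (0.22). *Tesk1* (0.12), *Grina* (0.15) and *Slc35a4* (0.15) were nearest to *Hspb2*, and *Dedd* (0.076), *Tmem182* (0.087) and *Kcnj12* (0.092) to *Hspb8*. The nearest gene was *Capns1* (0.035) for *Hspb1*, *Tbce* (0.087) for *Hspb3* and *Stx4a* (0.069) for *Hspb7*. These are descriptions over 7 libraries that differ in depth and in the GC trend.

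Of 4 genes listed, 3 heat shock factors and the gene of a protein that binds them, 2 rose and 2 fell, where 20.2% of all genes were called higher and 25.0% lower. *Hsf1*, the main inducer of chaperone genes, fell from 5.71, 5.58, 5.71 and 5.45 in WT to 4.56, 3.73 and 4.29 in C2-/-, a log2 change of -1.42 with an SE of 0.23 (limma adjusted p = 0.00143). *Hsf2*, a second factor of the family, rose from 4.79, 4.86, 4.79 and 4.50 to 6.30, 6.35 and 5.83 (1.43, SE 0.20, limma adjusted p = 0.000793). In both, the groups did not overlap and WT replicate 4 stood at the WT end. *Hsf4*, the lens factor, fell by 1.53 from at most 175 reads (SE 0.41, limma adjusted p = 0.0135), a call lost without WT replicate 1 or 2 (limma adjusted p = 0.0562 and 0.0568). *Hsbp1*, which encodes a heat shock factor binding protein, rose by 1.09 (SE 0.28, limma adjusted p = 0.0113), with overlap of the groups through WT replicate 4 and a call lost without C2-/- replicate 3 (limma adjusted p = 0.0503). After the GC correction *Hsf1* was at 0.01, *Hsf4* at 0.30 and *Hsf2* at 0.46, none past the threshold, and *Hsbp1* at 0.91 was past it.

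Of 12 genes listed as induced by HSF1, 4 rose and 0 fell (8 did not pass), with a median log2 change of 0.37, where 20.2% of all genes were called higher and 25.0% lower. They were *Hsp90aa1*, the stress-inducible cytosolic chaperone (log2 change 1.24, limma adjusted p = 0.00666), *Hspe1*, the mitochondrial co-chaperonin (1.92, limma adjusted p = 0.00695), *Cacybp* (1.19, limma adjusted p = 0.00831) and *Chordc1* (0.74, limma adjusted p = 0.0142). *Hspe1* stood at 7.21 in WT replicate 4, while WT replicates 1 to 3 had 5.07 to 5.26 and the C2-/- libraries 7.45 to 7.69. The genes of the inducible cytosolic chaperones, *Hspa1a* and *Hspa1b*, had at most 17 and 34 reads in any library. After the GC correction 1 gene of this list, *Hspe1* (2.38), was called higher, and *Chordc1* was called in the opposite direction (-0.78, limma adjusted p = 0.0399), where 12.3% of all genes were called higher and 8.32% lower. The call of *Chordc1* was also lost with array quality weights, at 0.56.

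Of 7 genes whose products work with HSPB8 in chaperone-assisted autophagy, 3 fell and 0 rose (4 did not pass), where 25.0% of all genes were called lower. Their median log2 change was -0.57 (all genes -0.14). *Sqstm1*, the autophagy receptor, fell by 1.79 (limma adjusted p = 0.000216), *Flnc*, filamin C of the Z-disc, by 2.03 (limma adjusted p = 0.000302) and *Stub1*, the ubiquitin ligase CHIP, by 1.88 (limma adjusted p = 0.000623). *Bag3* itself was at -0.57 (SE 0.18, limma adjusted p = 0.0289), short of the 1.5-fold limit. *Hspa8*, the constitutive chaperone of the complex, was at 0.57 (SE 0.18, limma adjusted p = 0.0237), also short of it. After the GC correction 1 gene of the 7 was called higher, *Hspa8* (0.95, limma adjusted p = 0.0108), and 2 lower, *Sqstm1* (-0.92) and *Synpo2* (-0.69, limma adjusted p = 0.0294), where 12.3% of all genes were called higher and 8.32% lower. *Flnc* (-0.52) and *Stub1* (-0.12) were then not past the threshold, and *Bag3* was at 0.63 (limma adjusted p = 0.0862).

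The 5 filament and Z-disc clients had a median log2 change of 0.59. Of them, *Vim* (log2 change 1.31, limma adjusted p = 0.00132) and *Myot*, myotilin (1.18, limma adjusted p = 0.00153), rose, and *Des*, desmin (-1.12, limma adjusted p = 0.00163), fell, where 20.2% of all genes were called higher and 25.0% lower. With the GC correction 3 were called higher and 0 lower, where 12.3% of all genes were called higher and 8.32% lower. They were *Vim* (2.16), *Myot* (0.74) and *Actn2*, alpha-actinin of the Z-disc, which went from -0.36 to 0.68 (limma adjusted p = 0.0438), while *Des* was at 0.13. Of 8 kinases that phosphorylate small heat shock proteins or act upstream, 5 fell and 0 rose, where 25.0% of all genes were called lower, with a median log2 change of -1.21. They were *Mapkapk3* (-1.77, limma adjusted p = 0.000269), *Mapk12* (-1.73, limma adjusted p = 0.000277), *Mapkapk2*, which encodes the HSPB1 kinase (-1.68, limma adjusted p = 0.000294), *Mapk14* and *Prkaca*. With the GC correction 1 of the 8 was called higher, *Mapkapk5* (1.75, limma adjusted p = 0.0024), and 2 lower, *Mapkapk3* (-0.75) and *Mapk12* (-0.69), against the same shares. *Mapkapk2* (-0.28), *Mapk14* (-0.43) and *Prkaca* (0.04) were then not past the threshold. Of the remaining genes listed for the family, *Hspb11* was analysed. It encodes a subunit of the intraflagellar transport machinery, and it rose by 2.33 (SE 0.48, limma adjusted p = 0.00362) from 7 to 39 reads in WT to 16 to 76 reads in C2-/-.

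Markers of the tissue and of other cells that express these chaperones were compared as well, where 20.2% of all genes were called higher and 25.0% lower. Of 8 fast-fibre genes (median log2 change -1.19) 5 fell, *Acta1* by 2.02 (limma adjusted p = 0.000793), and their sum was 152136 to 182224 CPM for WT replicates 1 to 3, 149555 for WT replicate 4 and 75596 to 98149 for C2-/- (the order kept for the sums that follow). Corrected for GC content, 1 was called higher (*Tnni2*, 0.68) and 2 lower, and *Acta1* was at -0.70 (limma adjusted p = 0.095), where 12.3% of all genes were called higher and 8.32% lower. The fast-fibre markers were abundant in every library. Of 6 slow-fibre genes none was called (0 higher, 0 lower), with sums of 78.0 to 136, 76.5 and 79.1 to 101 CPM, and *Myh7*, *Tnnc1* and *Tnnt1* were at 0 reads in at least 1 library. Corrected for GC content, 1 of the 6, *Atp2a2* (0.66, limma adjusted p = 0.0399), was called higher. HSPB6 is also abundant in smooth muscle. Of 6 smooth muscle genes (median log2 change -0.22), *Smtn* and *Tagln* fell and none rose, and their sum was 252 to 316, 169 and 159 to 227 CPM. Corrected for GC content, *Smtn* (-0.18) and *Tagln* (-0.40) were not past the threshold, and *Myh11* (0.95, limma adjusted p = 0.0261) was, as higher. Of 5 Schwann cell genes, *Mbp* fell, and their sum was 54.9 to 103, 124 and 64.0 to 95.5 CPM. The call of *Mbp* was lost after the GC correction (limma adjusted p = 0.0837), with array quality weights (limma adjusted p = 0.0559) and without WT replicate 3 (limma adjusted p = 0.0759). Their part in the small heat shock changes was not tested.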

How the data were processed

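Poly(A)-selected RNA of TA muscle from 4 WT and 3 C2-/- mice was sequenced. Per the study's methods and processing notes, the authors aligned reads to GRCm38.p6 with HISAT, counted them with featureCounts 1.5.2, scaled libraries by TMM in edgeR and deposited log2 values for 12239 genes. The use of strand is not stated. The deposited table of the authors' own limma comparison (fold changes and p-values) was not used.

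Each log2 value equalled log2 of a whole read number plus 0.5 over the scaled library size, so reads were recovered (100% whole within 1e-04). Libraries held 2613277 to 15464499 reads, and a count of 3 reads was 0.195 to 1.12 CPM.

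C2-/- and WT were compared with limma 3.58.1 (R 4.3.3, mean-variance trend, two-sided) on the log2 values with genotype alone, adjusted over all genes by Benjamini-Hochberg. The fit was tested on simulated counts that had no GC trend and no outlying WT library, so that test does not cover these features of the data. For thinly read genes, the added 0.5 shrinks a fall. The *Cryab* to *Hspb2* ratio was compared by an exact permutation test. The GC correction removed a natural spline (5 degrees of freedom) of log2 value on transcript GC per library, for the 12170 genes (99.4%) matched to GENCODE M21.

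Named genes were the members, the 3 lowest adjusted p of each role list (all heat shock factors and *Hsbp1*), the nearest analysed genes and the 3 most alike profiles. *Chordc1*, *Mapk14*, *Prkaca*, *Bag3*, *Hspa8*, *Synpo2*, *Actn2*, *Mapkapk5*, *Hspa1a*, *Hspa1b* and the marker genes were named after their values were seen. The members and lists were chosen with earlier results of these data known. Alternatives were quantile normalisation, median centring, voom on the recovered reads, no trend, array weights, a pseudocount of 2, a mean log2 minimum of 3, an adjusted p under 0.01, no fold minimum, the GC correction, a replicate block and leaving out each library. Replicates are separate mice by the study's description.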

Additional observations from a re-analysis of the deposited data

Results flagged for a closer look

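WT replicate 4 stood far from the other 3 WT libraries in 2 of 10 values examined with Dixon's test at the 95% level, where chance gives about 0.5. *Hspb6* was at 10.74 on the log2 scale in WT replicate 4, while WT replicates 1 to 3 were at 9.46 to 9.50 (ratio of gap to range 0.967). The summed level of the 7 small heat shock genes was 4174 CPM in WT replicate 4, against 2146 to 2365 CPM in WT replicates 1 to 3 (ratio 0.892). The 2 values are not independent, since *Hspb6* is part of the sum. WT replicate 4 also stood apart over the whole table, within the range of WT replicates 1 to 3 for 14.5% of all genes. The count of 0.5 is therefore not the one to expect for this library, and the 2 values are not a result about the members.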

How the results depend on the processing

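The count of called members was 3 to 6 of 7 over the alternatives. It was 3 at an adjusted p under 0.01 or without the variance trend, where *Cryab* was lost, 6 with quantile normalisation (2 higher, 4 lower) or the GC correction (5 higher, 1 lower), and 3 to 4 with a library left out. The count over all genes was 5528 (2473 higher, 3055 lower), 3216 at an adjusted p under 0.01, 2505 (1492 higher, 1013 lower) after the GC correction, 5643 (2883 higher, 2760 lower) with quantile normalisation, 5634 (3040 higher, 2594 lower) with median centring, and 4095 to 6136 with a library left out. The GC correction turned the direction of *Hspb1* (1.40), *Hspb7* (0.94), *Des* (0.13), *Hsf1* (0.011), *Hsf4* (0.30), *Zbtb17* (0.21), *Chordc1* (-0.78), *Prkaca* (0.040), *Bag3* (0.63), *Actn2* (0.68), *Tnni2* (0.68), *Proser3* (1.05) and *Lin37* (1.12), for which the cause was not tested. *Lin37*, *Proser3*, *Mdh2* and *Myh11*, none of them called in the comparison as reported, also changed sign near 0. *Lin37* was at 0.17, 0.051, 0.082, 0.065 and 0.035 with quantile normalisation, median centring, voom, array weights and the replicate block, and at -0.48 to 0.12 with a library left out. *Proser3* (0.074) and *Mdh2* (-0.077) did so with quantile normalisation, *Mdh2* at -0.075 to 0.16 with a library left out, and *Myh11* (-0.0034) with array weights. *Bag3*, *Hspa8*, *Synpo2*, *Snx18* and *Tnni2*, not called in the comparison as reported, passed the threshold under some alternatives besides the GC correction and the lack of a fold minimum. These were quantile normalisation for *Bag3* (-0.75), *Synpo2* (-0.84) and *Snx18* (0.77), median centring for *Hspa8* (0.73) and *Snx18* (0.80), voom for *Bag3* (-0.59), array weights for *Hspa8* (0.64), and the replicate block for *Hspa8* (0.69) and *Tnni2* (-0.64). With a library left out, *Bag3* passed without WT replicate 2 (-0.62) or C2-/- replicate 1 (-0.63) or 2 (-0.70), *Hspa8* without WT replicate 4 (0.69) or C2-/- replicate 1 or 3 (0.61 in both), *Synpo2* without WT replicate 1 (-0.62), and *Tnni2* without WT replicate 4 (-0.64) or C2-/- replicate 3 (-0.62). The *Cryab* to *Hspb2* difference in log2 ratio was 2.57 (exact permutation p = 0.0571) after the GC correction and 2.77 to 3.84 with a library left out, where the smaller designs cannot reach p = 0.05. With quantile normalisation WT replicate 4 was nearer to C2-/- in 2 members, and otherwise in 3. Median centring moved the all-gene median change from -0.14 to 0.02. The labels of same-numbered WT and C2-/- libraries share only a number. Their deviations correlated at -0.05 to -0.02 over 3 pairs, and 0 WT libraries correlated best with their own number, which shows no pairing but cannot exclude one. A replicate block, which drops WT replicate 4, called 4 members and 5929 genes, and gave a ratio difference of 3.72 (exact permutation p = 0.25, the smallest it allows). It changed no call of a member. Depth limits *Epha2*, with 0 to 1 reads in C2-/- (a change of -2.63 with a pseudocount of 2), and *Hspb2*, *Hsf4* and *Hspb11*, with 23, 7 and 7 reads in their lowest libraries.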
